A study of Mus musculus with 20 samples.

Results

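The genes described here are 10 members of the p53 and Bcl2 families that bear on the death of oocytes. They were chosen by mouse symbol, and all 10 were found among the 49585 genes counted in each library. They are the transcription factor genes Trp63 and Trp73, the pro-death genes Bbc3, Pmaip1, Bcl2l11 and Bax, and Bcl2, Bcl2l1, Bcl2l10 and Mcl1, which are listed here as pro-survival.

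RNA-seq counts came from whole ovaries of B6D2F1 mice. The Figla set held Figla knockout (Figla-/-) and control (Figla+/-) ovaries at embryonic day 18.5 (E18.5) and on the day of birth (P0), and the Lhx8 set held Lhx8 knockout (Lhx8-/-) and control (Lhx8+/-) ovaries at P0. The controls thus carry a knockout allele according to the genotype labels, whereas the library names of the Lhx8 set call its controls wild type. No label states how the alleles were made, how many ovaries were pooled, or which animals or litters they came from, so each p-value rests on sample-to-sample spread that could be partly technical.

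Several libraries need a remark before the results. The title and the library name give opposite genotypes for 6 of the 14 Figla libraries and for 6 of the 6 Lhx8 libraries. Groups follow the library name, and grouping the Lhx8 set by title would turn every sign in it. Libraries held 5583392 to 13408022 counts (Figla) and 8297204 to 9978350 counts (Lhx8). In both E18.5 groups, replicates 1 and 2 were near-identical and were summed as 1 sample (replicate 1-2), which leaves n = 3 in each group. The targeted genes were read first. Figla stood at 26.6 and 21.8 CPM (counts scaled to the TMM-adjusted library size) in E18.5 control replicates 4 and 1-2 but at 3.77 CPM in the library named control replicate 3, and the E18.5 knockouts held 0.826 to 1.53 CPM. The titles of control replicates 3 and 4 name a knockout and those of knockout replicates 1 and 2 a control, so a title that goes against the library name did not by itself go with a low Figla level. At P0 Figla was 36.9 ± 4.33 CPM in controls and 0.372 ± 0.235 CPM in knockouts (mean ± SD). Lhx8 was 95.5 CPM in Lhx8 controls and 23.6 CPM in Lhx8 knockouts, with every knockout below every control. How that allele was made is not stated, and transcript-end counts need not cover the changed part, so they may not check that label. As a check of the tissue, the germ cell gene Ddx4 and the pregranulosa gene Foxl2 were present, with means of 111 and 107 CPM in E18.5 controls.

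p53 family proteins are transcription factors that switch on death genes after DNA damage. In oocytes of primordial follicles the long, TA form of p63 is known as the guard of genome integrity. Its target genes Bbc3 (encoding PUMA) and Pmaip1 (NOXA) encode BH3-only proteins, which bind and disable pro-survival Bcl2 proteins and so free BAX and BAK to open the mitochondrial membrane.

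Trp63 was far lower in knockouts of either gene at P0. It lies on chromosome 16 (25683763 to 25892102, plus strand, GRCm38) and its annotation (GENCODE M21) holds 8 transcripts with 2 coding starts 117770 bp apart. The upstream start codon, at 25684290 to 25684292, opens the TA forms, and the downstream one, at 25802060 to 25802062, opens the ΔN forms that lack the first activation domain and mark basal epithelium. Each start is used by 4 transcripts. The first 60 coding bases from each are shown because they are where the 2 proteins part, with the start codon in capitals.
TA start: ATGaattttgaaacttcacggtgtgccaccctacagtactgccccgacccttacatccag
ΔN start: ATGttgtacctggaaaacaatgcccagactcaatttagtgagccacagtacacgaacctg
The counts add all transcripts of the gene, so a value for Trp63 does not tell these forms apart.

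At P0 in the Figla set, Trp63 stood at 86.4, 118.1 and 168.5 CPM in controls and at 1.09, 1.43 and 1.80 CPM in knockouts. Every control was above every knockout. The level was 86.1-fold lower in knockouts (log2 fold change -6.43, SE 0.30, adjusted p = 6.14e-07, edgeR quasi-likelihood test with Benjamini-Hochberg adjustment over 17321 genes), and 73 genes had a lower log2 fold change. In whole ovaries, fewer oocytes and less RNA in each oocyte cannot be told apart.

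Read from transcript ends in the Lhx8 set, Trp63 stood at 6.88, 13.9 and 10.1 CPM in controls and at 0.681, 0.306 and 0.247 CPM in knockouts. These groups did not overlap either. A 23.7-fold lower level (log2 fold change -4.57, SE 0.47, edgeR adjusted p = 0.000255) was measured. The knockout libraries held 7, 3 and 2 reads, so the gene passed the filter on low counts through the controls alone. Its test thus adds nothing to these counts. The Figla and Lhx8 effects were measured with different kits and the difference between them was not tested.

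At E18.5 1 control stood apart in Trp63. Controls held 34.0, 1.03 and 59.0 CPM in replicates 1-2, 3 and 4, and knockouts held 1.22, 1.88 and 1.53 CPM. Control replicate 3 was thus below all 3 knockouts, in the same library whose Figla level was low. With it, the log2 fold change of -4.37 (SE 1.11) had an edgeR adjusted p of 0.891. Without it the log2 fold change was -4.93 (SE 0.33, edgeR adjusted p = 0.00485), and without control replicate 4 it was -3.56 (0.9998). With all 3 controls the edgeR adjusted p was 0.000765 when no filter on low counts was applied. The other settings with all controls did not call it. The edgeR adjusted p was 0.896 with RLE scaling, 0.144 with near-identical libraries kept apart and 0.0677 in 1 model of all Figla groups. The DESeq2 adjusted p was 0.0873.

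**Figure D1:**
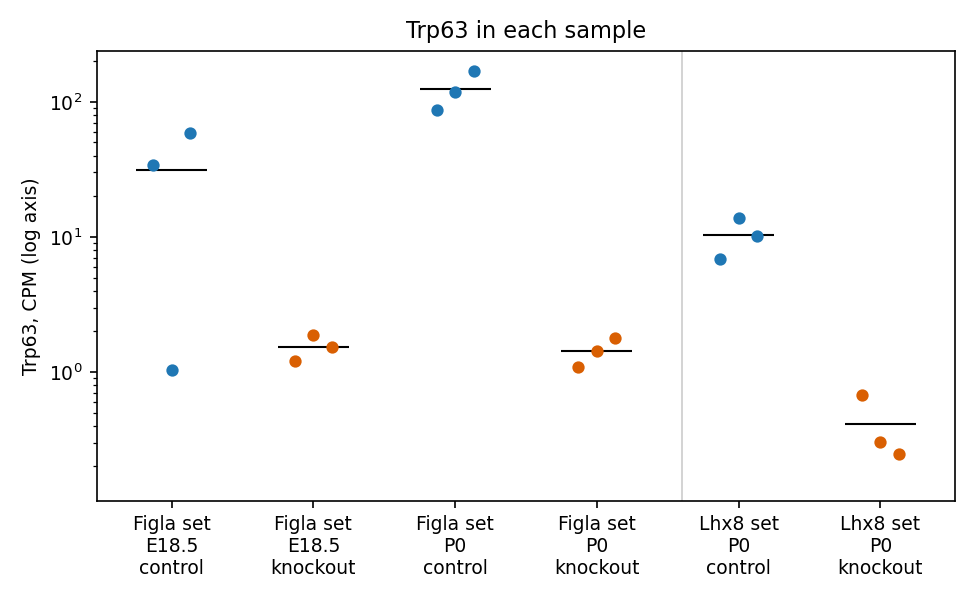
Trp63 level in CPM on a log axis for each of the 18 samples, with a line at the mean of each group of 3; points left of the grey line are from the Figla set and those right of it from the Lhx8 set, whose kit reads transcript ends. The P0 controls of the Figla set sit between 86.4 and 168.5 CPM, all Figla knockouts below 2 CPM, and 1 E18.5 control at 1.03 CPM.

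Trp63 also marks basal epithelium, so markers of stratified epithelium were read beside it. The 10 markers summed to 8.81 to 12.02 CPM in P0 Figla controls and 9.69 to 12.2 CPM in knockouts. The basal keratin gene Krt5 had 0 counts in all Figla controls, and Krt14 was at 1.28 ± 0.584 CPM in P0 controls and 0.987 ± 0.486 CPM in knockouts (SD, n = 3). None of the 5 markers tested at P0 in the Figla set passed the edgeR test, 1 had an unadjusted p under 0.05, and DESeq2 called 0. The smallest adjusted p was that of Dsc3, which encodes a desmosomal cadherin, at 1.05 ± 0.160 CPM in knockouts and 0.331 ± 0.213 CPM in controls (log2 fold change 1.601, SE 0.52, adjusted p = 0.0616). In the Lhx8 set the markers summed to 6.54 to 7.74 CPM in controls and 4.38 to 16.6 CPM in knockouts, and edgeR and DESeq2 called 0 of 4 tested there (1 with an unadjusted p under 0.05), with Sfn, an epithelial 14-3-3 gene, nearest at 1.497 (SE 0.65, adjusted p = 0.170).

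Trp73, the p63 relative, was near the limit of detection. It gave 11 to 14 reads in each P0 sample of the Figla set, at 1.05 ± 0.0389 CPM in controls and 1.06 ± 0.217 CPM in knockouts (SD, n = 3). Its log2 fold change was 0.00 (SE 0.38, edgeR adjusted p = 0.999). Lhx8 libraries gave no Trp73 read in any control and 4, 8 and 5 in the knockouts. The gene failed the filter on low counts there, so no adjusted p is given from the main fit. With the control group set at a floor of 3 counts, the level in knockouts was 5.63-fold higher. This ratio leaves out the counting error of the few knockout reads. Exons of Trp73 share 280 bases with the antisense gene Trp73os, which had 0 counts in the Lhx8 set, but strand was ignored in counting.

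Bbc3 stood higher in every knockout sample than in its controls, but only the Lhx8 comparison passed the test. How often other genes separate in this way with 3 samples per group is not given. Lhx8 controls stood at 4.38, 6.96 and 5.50 CPM and Lhx8 knockouts at 9.34, 17.02 and 12.99 CPM, with no overlap. This 2.33-fold higher level (log2 fold change 1.22, SE 0.29) passed the test (edgeR adjusted p = 0.0263). That call was lost when control replicate 1 (adjusted p = 0.109), control replicate 2 (0.0561), control replicate 3 (0.0844), knockout replicate 2 (0.081) or knockout replicate 3 (0.0501) was left out, while the log2 fold change stayed between 0.97 and 1.42.

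At E18.5 Bbc3 stood at 5.75, 6.68 and 6.497 CPM in controls and 12.2, 10.7 and 15.03 CPM in knockouts. The groups did not overlap and control replicate 3 was not apart from the other controls here. The log2 fold change of 1.02 (SE 0.22) had an edgeR adjusted p of 0.692, and of 0.291 without control replicate 3. In the Figla set at P0 Bbc3 stood at 6.52, 8.04 and 6.79 CPM in controls and 9.10, 9.37 and 10.9 CPM in knockouts, again without overlap. The log2 fold change there was 0.46 (SE 0.20, edgeR adjusted p = 0.143), so only the Lhx8 comparison passed the test. The difference between the Figla effects on Bbc3 at P0 and at E18.5 was -0.55 on the log2 scale (SE 0.27, edgeR adjusted p = 0.913).

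Promoters were searched for the p53 response element, because Bbc3 is a known target of the family. The search took a pair of adjoining 10-base p53 motifs with no spacer, at most 3 mismatches in the 20 bases, and the central C and G of each motif kept. The motif is its own reverse complement, so it covers both strands. RefSeq promoter windows of 300 bases (GRCm38.p6) existed for 7 of the 10 genes, in 13 windows. An element was found for 2 of the 7, Bbc3 and Trp73, and for 1.63% of the 27025 genes with a window. Counted by window, it was 1.38% of 32851 windows of all genes. The Bbc3 element starts 97 bases before a transcription start, at chr7:16309486-16309505, with 3 mismatches. The Trp73 element starts 66 bases before the start of a downstream promoter, at chr4:154097220-154097239 on the minus strand, with 2 mismatches. The surrounding 100 bases, at chr7:16309446-16309545 and chr4:154097180-154097279, are shown 5′ to 3′ on the gene's strand with the element in capitals.
Bbc3 promoter: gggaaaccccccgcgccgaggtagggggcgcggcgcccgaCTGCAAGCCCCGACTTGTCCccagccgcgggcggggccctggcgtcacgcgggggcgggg
Trp73 promoter: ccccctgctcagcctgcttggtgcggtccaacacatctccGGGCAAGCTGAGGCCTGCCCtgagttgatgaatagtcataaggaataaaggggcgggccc
These matches describe letters, not binding. Trp63, Pmaip1 and Bcl2l10 had no window.

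Pmaip1, the second BH3-only target of p63, had few reads. It stood in the Lhx8 set at 0.625, 1.05 and 0.673 CPM in controls (6, 10 and 6 reads) and at 1.17, 3.26 and 2.47 CPM in knockouts (12, 32 and 20 reads). All knockouts were above all controls, though the lowest knockout lay close to the highest control. The log2 fold change of 1.53 (SE 0.53) missed the threshold (edgeR adjusted p = 0.0913) and passed it when knockout replicate 1 was left out (0.0465). In the Figla set the groups overlapped at both ages, with log2 fold changes of 0.36 (SE 0.40, edgeR adjusted p = 1.00) at E18.5 and -0.20 (SE 0.34, edgeR adjusted p = 0.741) at P0.

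Bcl2l11 encodes BIM, a BH3-only protein that acts downstream of growth factor withdrawal. In the Figla set it stood at P0 at 30.9, 28.6 and 28.9 CPM in controls and 36.9, 39.0 and 43.2 CPM in knockouts. The groups did not overlap, and the log2 fold change was 0.43 (SE 0.12, edgeR adjusted p = 0.0333). The call was lost without control replicate 1 (adjusted p = 0.0519), control replicate 2 (0.075), control replicate 3 (0.0699), knockout replicate 2 (0.0919) or knockout replicate 3 (0.169). Lhx8 groups overlapped (log2 fold change 0.17, SE 0.18, edgeR adjusted p = 0.593), and at E18.5 they did too (0.17, SE 0.27, edgeR adjusted p = 1.00).

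**Figure D2:**
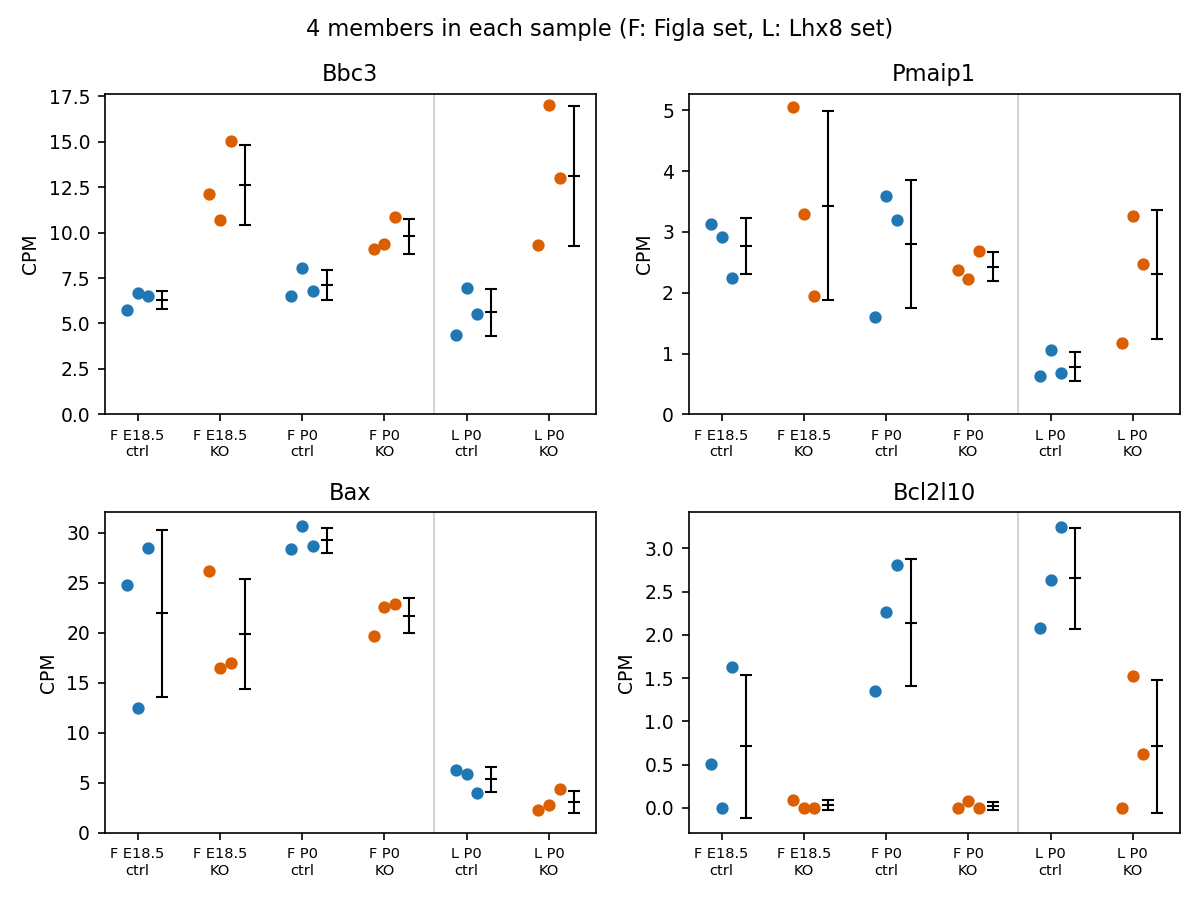
CPM of Bbc3, Pmaip1, Bax and Bcl2l10 in each of the 18 samples (F is the Figla set, L the Lhx8 set; blue control, orange knockout), with the mean and SD of each group beside its points. Bbc3 shows no overlap between knockouts and controls in any of the 3 comparisons, though it passed the test in the Lhx8 set alone, and Bcl2l10 is at 0 in 2 of the 3 P0 Figla knockouts.

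Bax encodes the effector that opens the outer mitochondrial membrane. It stood in the Figla set at P0 at 28.4, 30.6 and 28.7 CPM in controls and 19.7, 22.6 and 22.9 CPM in knockouts. No values overlapped, and the log2 fold change was -0.43 (SE 0.13, edgeR adjusted p = 0.0457). This call did not hold when any 1 of the 6 samples was left out: the adjusted p was 0.0671, 0.0968 and 0.095 without control replicates 1, 2 and 3 and 0.124, 0.102 and 0.123 without knockout replicates 1, 2 and 3. Bax had 60, 56 and 35 reads in Lhx8 controls and 23, 27 and 35 in Lhx8 knockouts. These overlapped (log2 fold change -0.80, SE 0.36, edgeR adjusted p = 0.182). At E18.5 control replicate 3 held the lowest value of all, 12.5 CPM against 24.8 and 28.5 CPM in the other controls, and the log2 fold change was -0.12 (SE 0.32, edgeR adjusted p = 1.00). Bax exons share 192 bases with Gm45808 on the same strand, which had 0 counts in every group, so reads from that stretch are uncertain.

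Among the genes listed here as pro-survival, Bcl2l10 had the fewest reads. It encodes a Bcl2 relative (also called Diva or Boo in mouse) with marked expression in the ovary. P0 Figla libraries gave 16, 24 and 36 reads in controls and 0, 1 and 0 reads in knockouts. The summed counts of 76 and 1 give a ratio of 72.5 after scaling, with an exact 95% interval for counting error of 12.6 to 2902. The gene passed the filter on low counts through the controls alone, so its test adds nothing to these counts. Lhx8 libraries gave 20, 25 and 29 reads in controls and 0, 15 and 5 in knockouts. All knockouts were below all controls, with a wide spread among the knockouts. Here too the gene passed the filter on low counts through the controls alone, so its test adds nothing to these counts. The log2 fold change of -1.88 (SE 0.77) had an edgeR adjusted p of 0.146, and the level was 2.66 ± 0.584 CPM in controls and 0.716 ± 0.769 CPM in knockouts (SD, n = 3). The log2 fold change was -1.27 without knockout replicate 1 and -3.19 without knockout replicate 2, and the edgeR adjusted p was 0.0211 with no filter on low counts. At E18.5 it failed the filter, with 9, 0 and 13 reads in controls, again none in control replicate 3, and 2, 0 and 0 in knockouts. That is a ratio of 11.96 with a counting interval of 2.94 to 104.9.

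None of the 3 abundant pro-survival genes was called in any knockout comparison. Mcl1, whose short-lived product is needed for oocyte survival, stood at 197.4, 169.3 and 202 CPM in P0 Figla controls and at 169.3, 144.9 and 150 CPM in knockouts. The highest knockout lay just under the lowest control, and the log2 fold change of -0.29 (SE 0.11) had an edgeR adjusted p of 0.0926, or 0.0481 without control replicate 2. Mcl1 in the Lhx8 set was at 79.0 ± 10.9 CPM in controls and 79.2 ± 10.4 CPM in knockouts (SD, n = 3). Bcl2l1, which encodes BCL-XL, had log2 fold changes of 0.27 (SE 0.15) at E18.5, 0.01 (SE 0.11) at P0 and 0.02 (SE 0.16) in the Lhx8 set. Bcl2, the founder of the family, had 0.06 (SE 0.20), 0.24 (SE 0.13) and 0.09 (SE 0.12). Their lowest edgeR adjusted p was 0.248, for Bcl2 at P0 in the Figla set. Bcl2 shares 558 exon bases with the opposite-strand gene D630008O14Rik, which had 14 to 46 counts per group, so its reads are uncertain there.

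Counted together, 4 of the 10 genes were called at P0 in the Figla set, 1 higher (Bcl2l11) and 3 lower (Trp63, Bax and Bcl2l10), the last through a filter that its controls alone had passed. Of all 17321 genes tested, 16.0% were called, 5.12% higher and 10.9% lower. Of 9 tested genes in the Lhx8 set 2 were called, 1 higher (Bbc3) and 1 lower (Trp63, which also passed the filter through its controls alone), where 10.4% of 15274 genes were called, 3.06% higher and 7.29% lower. At E18.5 0 of 8 tested genes were called by edgeR, 2 (Trp63 and Bbc3) had an unadjusted p under 0.05, and DESeq2 called 0. Among all 16131 genes edgeR called 0.00620% there, 607 had an unadjusted p under 0.05, and DESeq2 called 78. Without control replicate 3 edgeR called 0.531% of 16761 genes, with Trp63 the only gene of the 10. The median log2 fold change of the tested genes was 0.15 at E18.5, -0.10 at P0 and 0.02 in the Lhx8 set, beside 0.01, 0.02 and 0.05 over all genes tested.

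**Figure D3:**
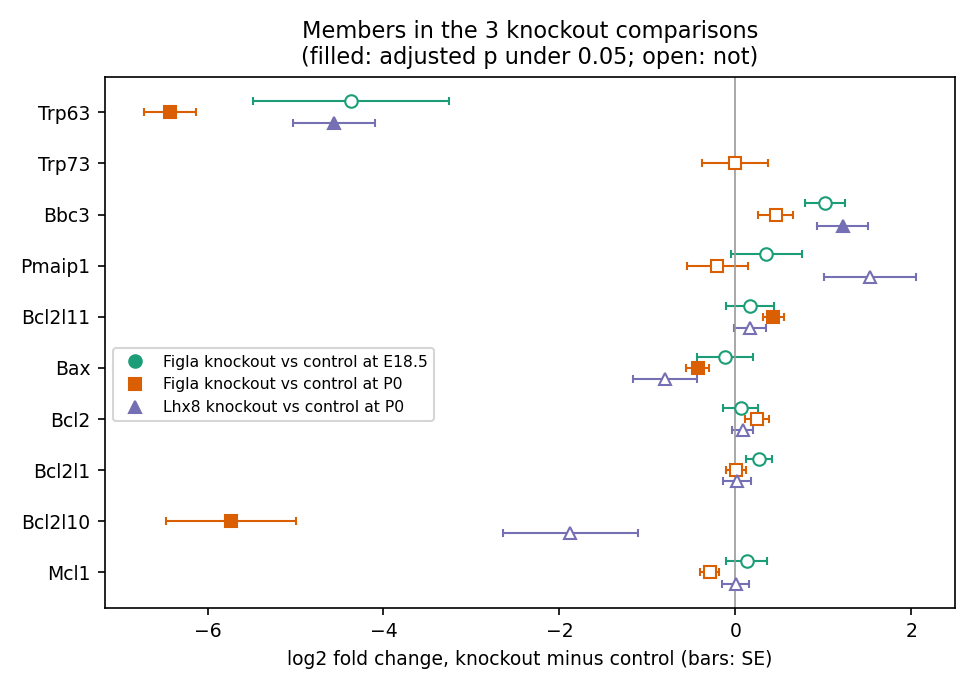
Log2 fold change of each gene, knockout minus control, with its SE, at E18.5 (circles) and P0 (squares) in the Figla set and at P0 in the Lhx8 set (triangles); filled symbols passed the adjusted threshold of 0.05, and genes that failed the filter on low counts have no symbol. Trp63 lies at -4.37, -6.43 and -4.57, Bcl2l10 at -5.73 and -1.88, and Bbc3 at 1.02, 0.46 and 1.22.

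Levels of different genes were compared per exon length, as RPKM, in the Figla set only, because the Lhx8 counts come from transcript ends. In P0 controls the order of mean RPKM was Mcl1 at 55.5, Bax at 18.6, Bcl2l1 at 15.6, Trp63 at 14.8, Bcl2 at 5.55, Bcl2l11 at 3.67, Bbc3 at 3.35, Bcl2l10 at 1.76, Pmaip1 at 1.06 and Trp73 at 0.19. The neighbours Bcl2l1 and Trp63, Bcl2l11 and Bbc3, and Bcl2l10 and Pmaip1 overlapped between samples, and each other neighbour was separate in all samples. In P0 knockouts Trp63 was ninth, at 0.172 ± 0.0419 RPKM (SD, n = 3), overlapping Trp73 at 0.191 ± 0.0393 RPKM. Mcl1 was the most abundant in each of the 4 Figla groups, with means of 42.3 to 55.5 RPKM. In E18.5 controls Trp63 was sixth, at 3.73 ± 3.46 RPKM, where control replicate 3 held 0.122 RPKM.

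**Figure D4:**
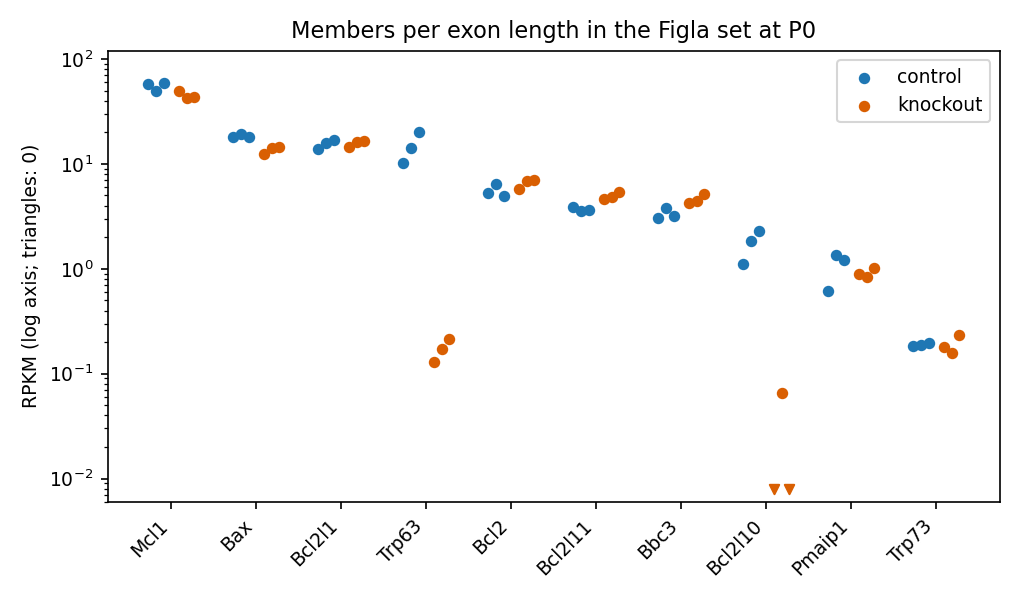
RPKM of the 10 genes in each P0 sample of the Figla set on a log axis, ordered by the control mean (blue control, orange knockout; triangles at the base mark samples with no read). Trp63 falls from the range of Bax and Bcl2l1 to that of Trp73, and Mcl1 stays on top in both groups.

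Age was compared within the Figla set in a model of all 12 samples, which uses the same samples as the knockout comparisons. Trp63 was at 124 CPM in P0 and 31.3 CPM in E18.5 controls (log2 fold change 1.97, SE 0.69, edgeR adjusted p = 0.124), and every P0 control was above every E18.5 control. The E18.5 mean holds control replicate 3 at 1.03 CPM. The log2 fold change was 1.43 without that sample and 2.75 without E18.5 control replicate 4. Leaving out single samples gave edgeR adjusted p-values of 0.0742 to 0.357. With no filter on low counts the edgeR adjusted p was 0.000595. Keeping only libraries with agreeing labels left replicate 1-2 alone among the E18.5 controls, so no p-value is given from that fit. In knockouts Trp63 was at 1.44 CPM at P0 and 1.54 CPM at E18.5 (log2 fold change -0.03, SE 1.07, edgeR adjusted p = 0.995). The difference between the Figla effects on Trp63 at the 2 ages was -2.001 (SE 1.27, edgeR adjusted p = 0.933). Bcl2l11 in controls was at 49.5 CPM at E18.5 and 29.5 CPM at P0 (log2 fold change -0.75, SE 0.22, edgeR adjusted p = 0.0851). Of the 10 genes, edgeR called 0 in controls, 0 in knockouts and 0 for the difference of effects; 4, 1 and 0 had an unadjusted p under 0.05, and DESeq2 called 1 (Bcl2l11), 0 and 0. Over all 18379 genes edgeR called 0%, 0.00544% and 0%. Of the same genes 4254, 2319 and 977 had an unadjusted p under 0.05, and DESeq2 called 1584, 297 and 3.

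The wider death pathway was read from 5 lists. Of all genes tested, edgeR called 5.12% higher and 10.9% lower at P0 in the Figla set, and 3.06% and 7.29% in the Lhx8 set. Among 10 other p53 family death targets, all tested at P0 in the Figla set, 2 rose and 2 fell. Aen, which encodes a nuclease induced by p53, fell from 138 ± 20.9 to 21.8 ± 1.62 CPM (log2 fold change -2.66, SE 0.14, edgeR adjusted p = 1.13e-06). Perp, which encodes a membrane protein of desmosomes, fell from 9.14 ± 4.67 to 0.895 ± 0.171 CPM (log2 fold change -3.34, adjusted p = 0.000399); it too passed the filter through its controls alone. Shisa5 (0.64, adjusted p = 0.0115) and Trp53inp1 (0.49, adjusted p = 0.0291), both targets induced by p53, rose. In the Lhx8 set 2 of 9 rose and 1 fell: Cdkn1a, which encodes the cell cycle inhibitor p21 (0.79, adjusted p = 0.0102), and Trp53inp1 (0.78, adjusted p = 0.0279) rose, and Aen fell from 134 ± 17.3 to 37.2 ± 17.6 CPM (log2 fold change -1.85, adjusted p = 0.00567). The list median was 0.21 and 0.41, beside 0.02 and 0.05 over all genes. At E18.5 Aen was at 115 ± 52.5 CPM in controls and 17.8 ± 2.02 CPM in knockouts (adjusted p = 0.163, or 0.00313 without control replicate 3). Trp53 itself was at 62.0 ± 11.1 CPM in P0 Figla controls and 65.6 ± 8.05 CPM in knockouts.

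Among all genes tested, 5.12% rose at P0 in the Figla set and 3.06% in the Lhx8 set. The lists of other Bcl2 genes were too short to compare with these shares. Of the other pro-death Bcl2 genes, 1 of 5 tested rose at P0 in the Figla set and 1 of 6 in the Lhx8 set, and none fell. In both it was Bmf, which encodes a BH3-only protein, with log2 fold changes of 0.65 (SE 0.12, adjusted p = 0.00458) and 1.29 (SE 0.29, adjusted p = 0.0206). Of the other pro-survival and less studied members, edgeR and DESeq2 called 0 of 3 in both sets (unadjusted p under 0.05: 0 and 1). Bcl2l13 came nearest, at 0.24 (adjusted p = 0.212) and 0.49 (adjusted p = 0.075).

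Over all genes tested 10.9% fell and 5.12% rose at P0 in the Figla set, and 7.29% fell and 3.06% rose in the Lhx8 set. Of 12 genes for p53 with the kinases and ubiquitin ligases that act on its family, 2 fell and none rose at P0 in the Figla set. They were Chek1, which encodes the checkpoint kinase CHK1 (log2 fold change -0.83, adjusted p = 0.0082), and Csnk1e, which encodes casein kinase 1 epsilon (-0.62, adjusted p = 0.00746). Lhx8 knockouts were lower in 2 of the 12 and higher in 1: Csnk1e (-0.81, adjusted p = 0.00458) and Mdm4, which encodes an inhibitor of p53 (-0.74, adjusted p = 0.00344), fell, and the tyrosine kinase gene Abl1 rose (0.70, adjusted p = 0.028). Of 17 caspase, apoptosome and inhibitor genes 1 fell in the Figla set at P0: Diablo, which encodes an antagonist of caspase inhibitors, at -0.52 (SE 0.10, adjusted p = 0.00586). Of 15 tested in the Lhx8 set 0 were called by edgeR, 4 had an unadjusted p under 0.05 and DESeq2 called 1. Over all 15274 genes 4242 had an unadjusted p under 0.05 there and DESeq2 called 2158. Diablo was at -0.42 there (adjusted p = 0.0505). At E18.5 edgeR called 0 of 46 tested genes of the 5 lists, 1 had an unadjusted p under 0.05, and DESeq2 called 1. Over all 16131 genes edgeR called 1 there, 607 had an unadjusted p under 0.05, and DESeq2 called 78.

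Markers of the ovary's cell types moved beside these values. Their counts stand beside 10.9% lower and 5.12% higher of all genes tested at P0 in the Figla set, and 7.29% and 3.06% in the Lhx8 set. At P0 in the Figla set 15 of 15 tested early oocyte genes and 6 of 12 germ cell markers fell, among them Nobox (0.0597 CPM in knockouts, 167 in controls) and Ddx4 (83.0 and 149 CPM). The 12 germ cell markers summed to 2474 to 3234 CPM in controls and 1999 to 2018 CPM in knockouts. Of the same lists in the Lhx8 set 12 of 15 early oocyte genes and 4 of 12 germ cell markers fell, with germ cell sums of 2264 to 2762 and 1720 to 2429 CPM. Of the early oocyte genes called, 8 in the Figla set and 5 in the Lhx8 set passed the filter through their controls alone. The early oocyte list holds Figla and Lhx8 themselves, so the gene knocked out is among those called in each set. Pregranulosa sums were 1779 to 2311 CPM in P0 Figla controls and 2594 to 2873 CPM in knockouts, where 2 of 10 rose (Kitl and Fst). Endothelial sums were 329 to 473 CPM in controls and 534 to 623 CPM in knockouts, where 4 of 10 rose. Macrophage sums were 59.7 to 67.9 CPM and 82.4 to 97.1 CPM, where 1 of 8 rose. In Lhx8 libraries pregranulosa sums were 1595 to 1732 CPM in controls and 1843 to 2090 CPM in knockouts, endothelial 556 to 595 and 599 to 693 CPM, and macrophage 87.1 to 114 and 121 to 163 CPM. Erythroid sums there were 4138 to 6410 CPM in controls and 4918 to 11850 CPM in knockouts, with 3 of 5 tested markers at an unadjusted p under 0.05, edgeR calling 0 and DESeq2 2. Over all 15274 genes 4242 had such a p in the Lhx8 set and DESeq2 called 2158. The part of these cell types in the values of Bbc3, Bcl2l11 and Bax was not tested.

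In E18.5 control replicate 3, early oocyte genes summed to 165 CPM, within the range of the knockouts (164 to 354 CPM) and below the highest control (1384 CPM). Erythroid markers were 801 to 1027 CPM in E18.5 controls and 1078 to 3146 CPM in knockouts, with 8 of 9 at an unadjusted p under 0.05, edgeR calling 0 and DESeq2 3. Over all 16131 genes 607 had such a p at E18.5 and DESeq2 called 78. The part of erythroid cells in the Bbc3 values at E18.5 was not tested. Of the multiciliated and duct markers, 1 of 5 was called in each set at P0: Ccno, which early oocytes also express, fell from 163 ± 73.3 to 8.91 ± 1.96 CPM in the Figla set and from 195 ± 24.98 to 21.3 ± 11.4 CPM in the Lhx8 set. Of all genes tested at P0, 10.9% fell in the Figla set and 7.29% in the Lhx8 set.

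The genes most like Trp63 across the 12 Figla samples were named by the correlation of log2 CPM among 16930 genes with a mean of at least 1 CPM. They were Zp2, a zona pellucida gene, Th, which encodes tyrosine hydroxylase, Izumo1r, which encodes the sperm receptor of the egg, Kdm1b, which encodes a histone demethylase needed for maternal imprints, and Fbxw18, an F-box gene. Pearson's r lay between 0.996 and 0.997, and the same 5 were named without E18.5 control replicate 3 (n = 11). These samples share their genotype groups and libraries, so r describes a pattern with no test. Of the other members, Bax had r = 0.74 (rank 1718 of the 16930 genes) and Mcl1 0.52. Bbc3 had r = -0.67, or -0.81 without E18.5 control replicate 3. Bcl2l11 had r = -0.48, Bcl2 -0.31, Bcl2l1 -0.21 and Pmaip1 -0.08. In the 6 Lhx8 samples the most like were Lcp1, Dlg2, Ranbp1, Rtn4ip1 and Mrpl54, with r from 0.995 to 0.998 among 15326 genes. Bax and Bcl2l10 both had r = 0.67 there (ranks 2913 and 2936), and Mcl1 had 0.10. Bbc3 had r = -0.87 (rank 14650), Pmaip1 -0.84, Bcl2 -0.74, Bcl2l11 -0.49 and Bcl2l1 -0.21.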

How the data were processed

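Whole-ovary RNA was measured in 20 libraries. Messenger RNA was selected, Figla libraries were made with Nextera from double-stranded cDNA and Lhx8 libraries with QuantSeq, which reads transcript ends, per the labels' protocols. The deposited values are raw counts per gene. Per the submitters' processing notes, cutadapt trimmed the reads and HISAT2 placed them on GRCm38.p5, with no version named for either tool in what was used here. The counter was featureCounts 1.6.0 with GENCODE M12 genes and strand ignored, per the file headers, so reads of overlapping genes are uncertain. Symbols were matched for 99.48% of genes.

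Near-identical replicates (chi-square per degree of freedom 1.12 and 1.32 over genes with at least 50 counts; 6.62 to 62.3 for the 22 other pairs) were summed. edgeR 4.0.16 (R 4.3.3) was run with filterByExpr (minimum count 10, minimum total 15), TMM scaling and its quasi-likelihood test, p-values adjusted by Benjamini-Hochberg over all genes tested and a threshold of 0.05. Each knockout comparison had its own model, and ages and the difference of effects used 1 model of the Figla samples. The SE is the absolute log2 fold change over the square root of F. RPKM divides CPM by the exon length in the files. The floor is 3 counts, and intervals are exact 95% intervals that cover counting error only. Log2 CPM for likeness used a prior count of 2.

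The alternatives were RLE scaling, no filter, DESeq2 1.42.0, leaving out each sample, keeping libraries whose labels agree, near-identical libraries kept apart, 1 model of all Figla groups, and a replicate block. The members and the 13 gene lists were chosen with earlier results of these data known. Named genes are the 10 members, Figla and Lhx8, the 5 genes most like Trp63, and from each list up to 4 called genes per direction with the largest change, or else the gene with the smallest adjusted p; Trp53, Krt5, Krt14, and Ddx4, Foxl2 and Nobox where outside that rule, were added as references after their values were seen.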

Additional observations from a re-analysis of the deposited data

How the results depend on the processing

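Trp63 at P0 stayed lower and called under every alternative run, at -6.64 to -5.99 (Figla) and -5.14 to -4.29 (Lhx8). In the Lhx8 set it passed the filter on low counts through its controls alone, so its calls there add nothing to the counts. At E18.5, 1 gene was called, but 229 with no filter, 78 with DESeq2, 1502 in libraries with agreeing labels, 34 with all libraries kept apart and 53 in 1 model; members called went from 0 to 1 with no filter and with agreeing labels, and leaving out samples gave 0 to 89 genes (89 without control replicate 3) and 0 to 1 members. At P0 in the Figla set 2767 genes and 4 members became 1496 and 2 with agreeing labels and 1363 and 2 in 1 model; no filter gave 2 members, and leaving out samples gave 1423 to 2882 genes (1423 without knockout replicate 3, 1605 without knockout replicate 2) and 2 to 3 members. In the Lhx8 set 1582 genes and 2 members became 2682 and 4 with no filter; leaving out samples gave 630 to 1490 genes (733, 630 and 911 without control replicates 1, 2 and 3) and 1 to 3 members. Same-numbered Lhx8 samples did not deviate together (r of deviations -0.154, 0.047 and 0.038), and a replicate block on those numbers called 931 genes, with Trp63 at -4.53 and Bbc3 at 1.21. The fit with no filter gave far smaller p-values at much the same change, as for Trp63 at P0 in the Figla set (-6.45, adjusted p = 1.545e-223, against 6.14e-07 with the filter). No paired analysis was possible for the Figla set because its numbers only name samples in deposit order and the titles that carry numbers disagree with the library names. Age in controls called 0 genes, but 1252 with no filter, 1584 with DESeq2, 1231 with agreeing labels and 1490 with libraries apart (members 2, 1, 2 and 1), and 0 to 556 when samples were left out (556 without E18.5 control replicate 4). Age in knockouts called 1 gene, but 0 with RLE, 530 with no filter, 297 with DESeq2, 285 with agreeing labels and 16 with libraries apart. It called 0 to 150 when samples were left out (150 without E18.5 knockout replicate 1-2). The difference of effects called 0 genes, but 63 with no filter, 3 with DESeq2 and 148 with agreeing labels.

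Signs turned only for changes that were not called. With agreeing labels at E18.5, where replicate 1-2 was the only control sample, Pmaip1 was at -0.27, Bcl2l11 at -0.52, Bcl2 at -0.23 and Mcl1 at -0.39. With no filter, Trp73 (-0.012) and Bcl2l1 (-0.00996) at P0 in the Figla set and Mcl1 in the Lhx8 set (-0.0145) turned; Mcl1 there was at -0.00548 with RLE and -0.00533 with DESeq2. Trp63 with age in knockouts was at 0.025 with libraries apart. Leaving out samples gave, at E18.5, -0.0772 to 0.61 for Pmaip1, -0.18 to 0.37 for Bcl2l11, -0.38 to 0.0923 for Bax, -0.16 to 0.20 for Bcl2 and -0.13 to 0.27 for Mcl1; at P0, -0.16 to 0.13 for Trp73 and -0.0748 to 0.0799 for Bcl2l1; in the Lhx8 set, -0.11 to 0.15 for Bcl2l1 and -0.0927 to 0.11 for Mcl1; and -0.24 to 0.12 for Trp63 with age in knockouts. The cause of these shifts was not tested. Low counts limit Trp73, Pmaip1 and Bcl2l10.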
